A study of Mus musculus with 2084 samples.

Results

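The NB sort (cells gated as neuroblasts) was compared with the NSC sort (cells gated as neural stem cells) of the ventricular-subventricular zone (vSVZ), the stem cell niche along the lateral ventricle of the adult mouse brain. The members are all wild-type (WT), naive cells whose title carries the gate NB or NSC and the letter pA, pB or pC, whatever cell type they were labelled as. They number 108 of the 2084 labelled cells of the series, 67 in the NB sort (19 in pA, 21 in pB and 27 in pC) and 41 in the NSC sort (9 in pA, 15 in pB and 17 in pC). A letter is a biological replicate of 1 or more mice, since mice were taken singly or pooled for a plate. Both sorts came from WT mice that had neither tamoxifen nor ischemia. The labels give no age for the WT mice. The transcriptome was read by Smart-seq3, a full-length single-cell method, as the RNA side of scNMT-seq, an assay that also reads the epigenome, which is not used here. The labels' protocols say that cells were stained for O4, Ter119, CD45, GLAST, PSA-NCAM, Prominin1 and CD9 and with the dead-cell dye Sytox Blue. They do not say which combination defines a gate. Genes of these antigens therefore describe the sort and are no independent result.

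Neural stem cells of the vSVZ share many genes with astrocytes, among them the glutamate transporter GLAST. Most rest in quiescence (qNSC), and activated ones (aNSC) give transit-amplifying progenitors (TAP) and then neuroblasts, which migrate in chains along the rostral migratory stream to the olfactory bulb and become GABAergic interneurons. Migrating neuroblasts carry polysialic acid (PSA), a long sialic acid polymer attached to the neural cell adhesion molecule NCAM that weakens adhesion between cells. The polymer is built by the polysialyltransferases St8sia2 and St8sia4.

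The labels put 62 NB cells as neuroblast and 5, all of pC, as TAP. They put 27 NSC cells as qNSC1, 2 as qNSC2, 3 of pC as aNSC, 1 of pB as TAP and 8 as oligodendrocyte, of which 7 were in pB and 1 in pA. These labelled types may rest on the transcriptomes themselves and were used only to describe the sorts and to leave cells out. The 8 oligodendrocytes touch several results below. Where leaving them out changed the call of a gene given with its values, this is said beside it.

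The sequences below are those of genes that carry the sort: the 2 polysialyltransferases, Dcx (doublecortin, the microtubule-binding protein that marks migrating neuroblasts) and Slc1a3 (the gene of GLAST). Each is the 250 bases before an annotated transcript start in RefSeq on GRCm38.p6, all on the minus strand and written 5′ to 3′ along the gene. Capitals mark CG dinucleotides.
St8sia2 (chr7:74013683-74013932): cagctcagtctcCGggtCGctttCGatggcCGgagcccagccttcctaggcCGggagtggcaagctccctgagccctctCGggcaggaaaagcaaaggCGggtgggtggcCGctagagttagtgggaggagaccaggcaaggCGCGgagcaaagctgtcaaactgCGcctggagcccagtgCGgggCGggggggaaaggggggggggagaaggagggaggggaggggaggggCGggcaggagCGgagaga
St8sia4 (chr1:95667595-95667844): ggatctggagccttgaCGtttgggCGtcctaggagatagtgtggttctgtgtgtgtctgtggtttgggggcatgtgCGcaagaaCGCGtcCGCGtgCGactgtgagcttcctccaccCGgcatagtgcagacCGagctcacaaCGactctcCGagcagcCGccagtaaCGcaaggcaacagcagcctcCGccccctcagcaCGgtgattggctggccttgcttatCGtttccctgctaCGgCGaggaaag
Dcx (chrX:143933220-143933469): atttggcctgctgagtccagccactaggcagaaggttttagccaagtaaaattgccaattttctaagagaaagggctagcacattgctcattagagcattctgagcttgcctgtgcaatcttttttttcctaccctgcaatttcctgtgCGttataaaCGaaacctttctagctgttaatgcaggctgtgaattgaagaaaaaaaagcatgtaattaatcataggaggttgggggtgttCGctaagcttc
Slc1a3 (chr15:8710808-8711057): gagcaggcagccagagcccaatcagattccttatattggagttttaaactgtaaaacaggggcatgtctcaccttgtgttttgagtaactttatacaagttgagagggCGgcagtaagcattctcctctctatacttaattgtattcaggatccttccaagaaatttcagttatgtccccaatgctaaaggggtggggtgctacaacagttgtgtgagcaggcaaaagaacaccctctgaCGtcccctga
The St8sia2 and St8sia4 stretches hold 15 and 19 CG dinucleotides and the Dcx and Slc1a3 stretches 3 and 2. The median was 6 over all 32851 promoters of the table and 15 over the 13622 promoters of genes tested here. The medians were 17 for genes higher in the NB sort (875 of 1140 matched) and 13 for genes lower (1241 of 1615 matched). The E-box CAGCTG, searched as this palindrome, is in none of the 4 and in 13% of all promoters, against 13.2% for genes higher and 14.3% for genes lower. The homeodomain core TAATTA, also a palindrome, occurs once, 39 bases before the Dcx start used, which is 1 of 2 Dcx starts held. That match lies inside the Dcx gene as GENCODE M21 annotates it (chrX:143855842-143933311). The core is in 4.84% of all promoters, in 2.77% of those of genes tested, in 2.49% for genes higher and in 3.33% for genes lower. These matches describe letters in a window and not bound sites.

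Reads of a gene were summed over the cells of a sort in a letter, giving 3 NB sums and 3 NSC sums, and are reported as CPM (counts scaled to a common library size, TMM), always in the order pA, pB, pC. The NB sums held 12614702, 19169496 and 4400940 counts and the NSC sums 6022271, 12885813 and 2258331. The third letter was the shallowest in both sorts. Single cells ranged from 8247 to 1401507 counts in the NB sort (median 445688, median 7434 genes) and from 8606 to 1339895 in the NSC sort (median 398578, median 8033 genes), and 2 cells of each sort lay below 20000 counts. Fold changes are NB over NSC within letters, given with their standard error (SE), so a positive log2 value is higher in the NB sort. A gene is called when edgeR's quasi-likelihood test, with the letter as a block, gave an adjusted p below 0.05. The p-values set a difference between sorts against the spread that remains among sums once sort and letter are fitted. That spread was estimated over 12 sums, which include the ASTRO and OLIGO sorts of the same letters, and was moderated across genes. It is thus not the spread of the NB and NSC sums alone. A summed level does not separate fewer expressing cells from less RNA per cell.

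The 2 sorts differed in a large part of the transcriptome. Of 14348 genes tested, 2755 were called (19.2%), 1140 of them higher in the NB sort (7.95%) and 1615 lower (11.3%), while the median log2 fold change over all genes was 0.00. The direction was the same in 3 of 3 letters for 2652 of the called genes. The NB and NSC sums did not overlap for 2085 genes with NB above NSC (14.5%) and for 2273 with NB below NSC (15.8%). Leaving out 1 letter changed the counts by more than 1.5 times, to 438 higher and 796 lower without pA, 331 and 736 without pB, and 342 and 882 without pC. Without the letter as a block the counts were 519 and 1171. They were 1321 and 1566 without the 8 NSC cells labelled oligodendrocyte, and 1144 and 1645 without the 5 NB cells labelled TAP. Calls in 1 direction are therefore read below beside their values in each letter.

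Of 6 tested genes of the stained antigens and of PSA synthesis, 3 were called higher in the NB sort, 2 lower and 1 was not called. Ncam1 (neural cell adhesion molecule, ENSMUSG00000039542, chr9:49502136-49798925, GENCODE M21 on GRCm38) had 1239, 1556 and 2476 CPM in the NB sums and 622, 573 and 506 CPM in the NSC sums. Its log2 fold change was 1.61 ± 0.34 (SE, adjusted p = 0.00932), and its sums did not overlap. The gene of the protein backbone was thus read in both sorts. St8sia2 (chr7:73939119-74013690), the polysialyltransferase that predominates during development, stood at 138, 146 and 72.9 CPM in the NB sums and 0, 4.58 and 0 CPM in the NSC sums. It was detected in 56 of 67 NB cells and 2 of 41 NSC cells, and 1 NSC cell held 98.3% of the sort's counts. St8sia4 (chr1:95587682-95667571), the other polysialyltransferase, had 163, 152 and 25.9 CPM in the NB sums and 20.8, 11.5 and 10.9 CPM in the NSC sums (log2 fold change 2.81 ± 0.56 SE, adjusted p = 0.00744). Its sums did not overlap, but the NB sum of pC was well below those of pA and pB. Slc1a3 (chr15:8634124-8710764) went the other way, with 30.4, 16.7 and 18 CPM in the NB sums and 7504, 3851 and 5508 CPM in the NSC sums (log2 fold change -8.03 ± 0.48 SE, adjusted p = 4.59e-05). Cd9, a tetraspanin found on stem cells and glia, was lower with 104, 149.7 and 100.1 CPM in the NB sums and 283, 368 and 154 CPM in the NSC sums (log2 fold change -1.14 ± 0.29 SE, adjusted p = 0.0217). Prom1 (Prominin1) was not called, with 15.1, 28 and 16 CPM in the NB sums and 48.9, 20.9 and 29.6 CPM in the NSC sums (log2 fold change -0.69 ± 0.62 SE, adjusted p = 0.483), and the 2 sorts overlapped. Ptprc, the gene of the leukocyte antigen CD45, was too low to be tested. The fitted log2 fold change of St8sia2 was 7.88 ± 1.44 (SE, adjusted p = 0.0082). It was 6.20 without pA, 12.26 without pB, 7.94 without pC and 6.09 without the block. Leaving out a letter or the block ended the call of St8sia2 (adjusted p = 0.0766 without pC) and Ncam1 (0.0919 without pB, 0.0734 without pC). It was also so for St8sia4 (0.0895 without pA, 0.116 without pB) and Cd9 (0.166 without pA, 0.19 without pB, 0.0589 without pC, 0.11 without the block).

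**Figure D1:**
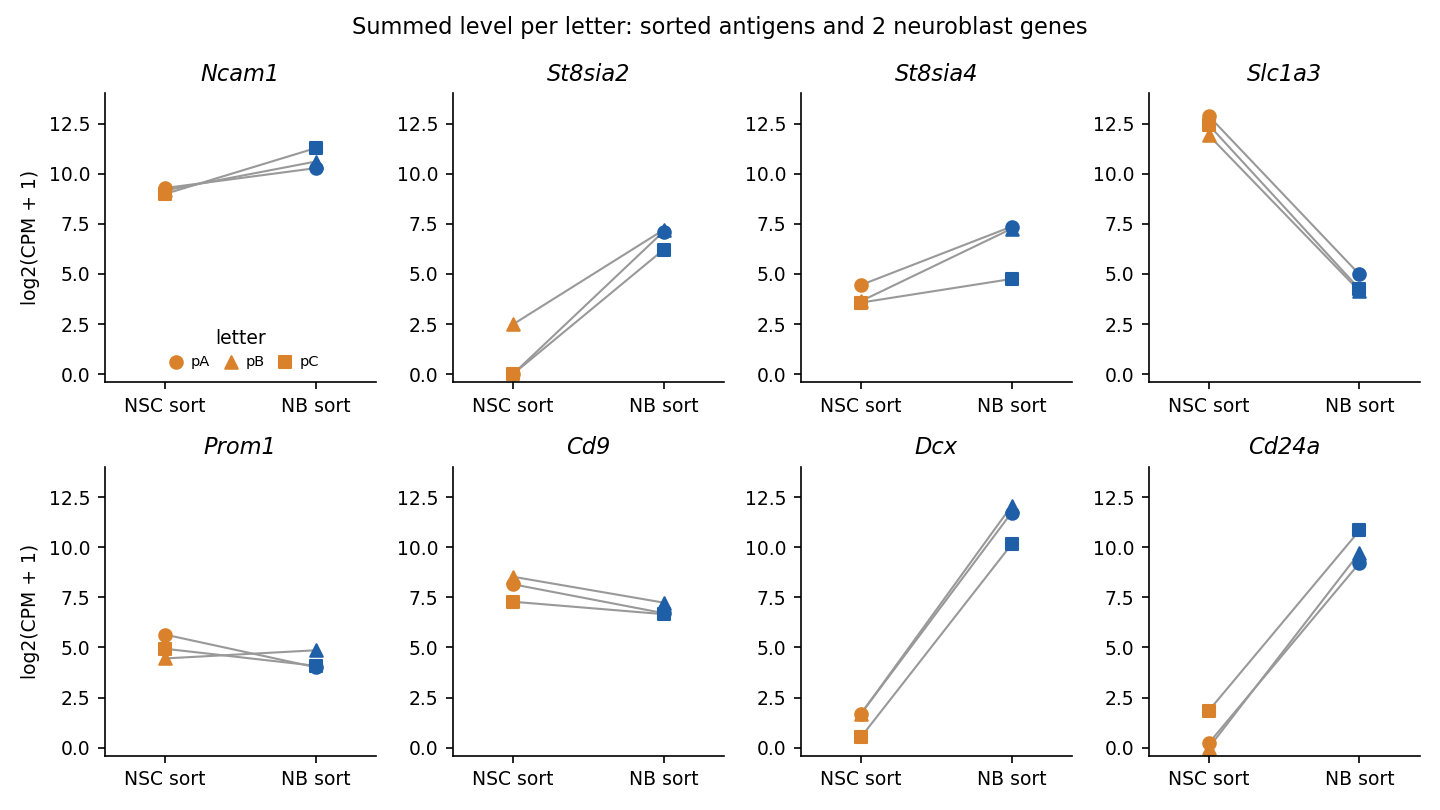
Level of 8 genes as log2(CPM + 1) on the vertical axis in the NSC sort (orange) and the NB sort (blue), 1 symbol per letter (circle pA, triangle pB, square pC) with a line joining the 2 sums of a letter. Ncam1, St8sia2, St8sia4, Dcx and Cd24a are higher in the NB sum of all 3 letters, Slc1a3 and Cd9 are lower in all 3, and the Prom1 lines cross.

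Transcription factors of the olfactory interneuron lineage were higher in the NB sort. Of 27 tested members of the list of neuroblast transcription factors, 19 were called higher (70.4%, against 7.95% of all genes) and 1 lower. The median log2 fold change was 4.40 against 0.00 over all genes. Among the higher ones were Dlx1, Dlx2, Dlx5, Dlx6, Sp8, Sp9, Sox4, Sox11, Meis2, Tshz1, Tox3, Myt1, Myt1l, Bcl11a, Bcl11b, Klf7, Zfp704 and Nfib. Sp8, a zinc finger factor of olfactory interneurons, had 171, 266 and 203 CPM in the NB sums and 0, 0 and 0 CPM in the NSC sums. It was found in 52 of 67 NB cells and 0 of 41 NSC cells, and the pooled level was at least 1558-fold higher, taking a floor of 3 counts over the NSC sort (adjusted p = 0.000313). Dlx5, a distal-less homeobox factor of GABAergic neurons, had 73.2, 136 and 62.5 CPM in the NB sums and 0, 0 and 0 CPM in the NSC sums, at least 729-fold higher (adjusted p = 0.00226). No NSC sum held a read of either gene. Dlx1, chosen after its values were seen, had 1068, 1130.5 and 932 CPM in the NB sums and 0.341, 48.1 and 10.4 CPM in the NSC sums (log2 fold change 7.31 ± 1.35 SE, adjusted p = 0.0053), and 87.2% of its NSC counts came from 1 cell. Sox4 and Sox11, SoxC factors of new neurons, were chosen in the same way. Sox4 had 820.0, 1464 and 3870.2 CPM against 5.79, 25.1 and 35.6 CPM (log2 fold change 6.63 ± 0.49 SE, adjusted p = 6.11e-05). Sox11 had 1226, 1870.3 and 3209 CPM against 16.4, 53.8 and 272 CPM (log2 fold change 4.94 ± 0.64 SE, adjusted p = 0.000933). In both, NB and NSC sums were highest in pC. Etv1, an ETS factor, was the highest member not called, with 489.6, 508 and 189 CPM in the NB sums and 119, 243 and 15.6 CPM in the NSC sums (log2 fold change 1.76 ± 0.77 SE, adjusted p = 0.141), and its sums overlapped. It was called higher once the labelled oligodendrocytes were left out (log2 fold change 4.10, adjusted p = 0.00162). The count of members higher was 17 without pA, 15 without pB, 14 without pC and 17 without the block. The calls of Sp8, Dlx5, Dlx1, Sox4 and Sox11 held with any 1 letter left out.

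The cytoskeletal genes of migrating and process-bearing neurons moved with the factors. Of 30 genes of microtubules and growth cones, 20 were called higher (66.7%, against 7.95% of all genes) and 1 lower (3.33%, against 11.3%). Their median was 3.43. Together the 30 took 30478, 31681 and 45859.5 CPM of the NB sums and 5973, 6921 and 5282 CPM of the NSC sums. Dcx (chrX:143855842-143933311) had 3365, 4256 and 1126 CPM in the NB sums and 2.22, 2.21 and 0.435 CPM in the NSC sums (log2 fold change 10.77 ± 0.67 SE, adjusted p = 4.62e-05). Every one of the 67 NB cells held a Dcx read, against 18 of 41 NSC cells. With each cell thinned to 20000 counts, the shares were 65 of 65 and 1 of 39, so most NSC cells with a Dcx read had it at a level that shallow depth would miss. Stmn2 (stathmin-2, a tubulin-binding protein of growing axons) had 659, 1141 and 2709 CPM in the NB sums and 1.02, 0.474 and 0 CPM in the NSC sums (log2 fold change 10.79 ± 1.00 SE, adjusted p = 0.000174). Map1b (a microtubule-associated protein) and Tubb3 (the neuronal beta-tubulin) were chosen after their values were seen. Map1b had 3491, 3358 and 2249 CPM against 62.4, 103 and 18.3 CPM (log2 fold change 5.76 ± 0.77 SE, adjusted p = 0.00106). Tubb3 had 758, 691 and 822 CPM against 5.79, 24.4 and 0 CPM (log2 fold change 6.37 ± 1.55 SE, adjusted p = 0.0184). All 4 were far above any NSC sum in each letter. Dclk1, a doublecortin-like kinase, was the 1 member called lower, with 675, 982 and 424 CPM in the NB sums and 1745, 1226 and 1482 CPM in the NSC sums (log2 fold change -1.22 ± 0.38 SE, adjusted p = 0.0487). It lay opposite to its paralogue Dcx. Tubb2b was the highest member not called, with 1817, 1067 and 1487 CPM in the NB sums and 625, 108 and 352 CPM in the NSC sums (log2 fold change 2.21 ± 0.71 SE, adjusted p = 0.0554), although its sums did not overlap. The count of members higher was 16 without pA, 16 without pB, 14 without pC and 15 without the block. Calls that did not hold without a letter or the block were those of Tubb3 (adjusted p = 0.117 without pA, 0.0846 without pC) and Dclk1 (0.192 without pA, 0.0857 without pB, 0.29 without pC, 0.205 without the block).

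Among genes of adhesion, guidance and migration more were called higher than lower. Of 38 tested, 14 were higher (36.8%, against 7.95% of all genes) and 4 lower (10.5%, near the 11.3% of all genes), with a median of 1.39, and 20 were not called. The higher ones were Robo2, Plxna2, Plxna4, Epha4, Ephb2, Efnb2, Erbb4, Prokr2, Celsr3, Nrxn3, L1cam, Cd24a, Igfbpl1 and Lrp8. Cd24a, the glycosylated surface protein used to isolate neuroblasts, had 591, 848 and 1824 CPM in the NB sums and 0.17, 0 and 2.61 CPM in the NSC sums (log2 fold change 11.27 ± 1.15 SE, adjusted p = 0.000249) and was found in 67 of 67 NB cells and 3 of 41 NSC cells. Igfbpl1, an IGF-binding protein-like secreted protein, had 551, 349 and 626 CPM in the NB sums and 0.17, 0.869 and 0 CPM in the NSC sums (log2 fold change 10.05 ± 1.04 SE, adjusted p = 0.000285). Neither gene passed 3 CPM in an NSC sum. Prokr2, a receptor whose ligand guides neuroblasts to the olfactory bulb, had 191, 367 and 19.8 CPM against 3.41, 2.69 and 0.435 CPM (log2 fold change 6.15 ± 0.87 SE, adjusted p = 0.0014). Robo2, a receptor of the repellent Slit proteins, had 701, 561 and 160.1 CPM against 41.8, 25 and 19.1 CPM (log2 fold change 3.85 ± 0.62 SE, adjusted p = 0.00482). Erbb4, a neuregulin receptor, had 728, 401 and 74.2 CPM against 3.24, 52.5 and 0 CPM (log2 fold change 5.23 ± 1.07 SE, adjusted p = 0.00875). In all 3 receptor genes the NB sums were well above the NSC sums of their letter. L1cam (a neural adhesion molecule) had 179, 116 and 36.9 CPM against 4.6, 2.45 and 3.48 CPM (log2 fold change 4.90 ± 0.71 SE, adjusted p = 0.00158). Nrxn3 (neurexin-3) had 939, 1114 and 818 CPM against 5.62, 7.82 and 4.78 CPM (log2 fold change 7.31 ± 0.47 SE, adjusted p = 4.62e-05). These 5 genes were picked with their values known, and each was lowest in pC among the NB sums. The members called lower were Sema6d, Ephb1, Dab1 and Pcdh17. Sema6d, a transmembrane semaphorin, had 30.2, 20.5 and 23.8 CPM in the NB sums and 669, 398 and 133 CPM in the NSC sums (log2 fold change -3.57 ± 0.53 SE, adjusted p = 0.00186). Dab1, the adaptor of reelin receptors, had 28.4, 28.1 and 6.75 CPM in the NB sums and 397, 117 and 79.5 CPM in the NSC sums (log2 fold change -3.03 ± 0.59 SE, adjusted p = 0.00707). Nrcam was the highest member not called, with 209, 224 and 40.2 CPM in the NB sums and 644, 312 and 257 CPM in the NSC sums (log2 fold change -1.75 ± 0.67 SE, adjusted p = 0.0966). With the labelled oligodendrocytes left out, Nrcam was called lower (log2 fold change -2.07, adjusted p = 0.0305) and Erbb4 stood at a log2 fold change of 11 (adjusted p = 3.04e-05). The count of members higher was 8 without pA, 12 without pB, 8 without pC and 11 without the block, and that of members lower was 1 without pA, 3 without pB, 2 without pC and 3 without the block. The call also needed every letter, or the block, for Erbb4 (adjusted p = 0.0787 without pA, 0.0627 without pC, 0.0764 without the block) and Dab1 (0.0814 without pA, 0.0759 without pC).

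The genes that make and package GABA, the transmitter of olfactory interneurons, were higher in the NB sort. Of 14 tested GABA genes, 6 were higher (42.9%, against 7.95% of all genes), among them Gad1, Gad2, Slc32a1 and Gabrb2. The 2 lower ones were Slc12a2 and Abat, which breaks GABA down (14.3%, near the 11.3% of all genes). The median was 0.47. Gad1 and Gad2 encode the decarboxylases that make GABA. Gad1 had 969, 606 and 291 CPM against 18.1, 3.63 and 9.56 CPM (log2 fold change 5.91 ± 0.79 SE, adjusted p = 0.00105). Gad2 had 819, 1034 and 432 CPM against 2.56, 8.06 and 3.04 CPM (log2 fold change 7.56 ± 0.95 SE, adjusted p = 0.000803). Slc32a1, the vesicular GABA transporter, had 10.3, 10.9 and 41.1 CPM against 0, 0 and 0.435 CPM, a pooled 297-fold (95% interval 53.1 to 11747, counting error only) difference (adjusted p = 0.0179). These 3 genes were picked with their values known. A Gad1 read was found in 64 of 67 NB cells and 7 of 41 NSC cells. Gabrb2, a GABA-A receptor subunit, was at 0 in every NSC sum. It had 109, 102 and 2.25 CPM in the NB sums (at least 644-fold higher, adjusted p = 0.0061). It was nearly absent from the NB sum of pC. Abat, the GABA transaminase, had 86.6, 116 and 16.9 CPM in the NB sums and 385, 208 and 79.1 CPM in the NSC sums (log2 fold change -1.69 ± 0.45 SE, adjusted p = 0.0261). Slc12a2, the chloride importer NKCC1, was lower with 66.2, 49.8 and 25.4 CPM in the NB sums and 363, 1045 and 30 CPM in the NSC sums (log2 fold change -2.74 ± 0.70 SE, adjusted p = 0.0233). The sums of the 2 sorts overlapped for both Abat and Slc12a2. The Slc12a2 call was also lost without the 8 labelled oligodendrocytes (adjusted p = 0.22). Members higher were 5 without pA, 5 without pB, 4 without pC and 5 without the block. Without a letter or the block the call was lost for Gabrb2 (adjusted p = 0.052 without pA) and Abat (0.132 without pA, 0.0623 without pB, 0.135 without pC, 0.275 without the block). It was also so for Slc32a1 (0.102 without pB, 0.143 without pC, 0.0712 without the block) and Slc12a2 (0.139 without pA, 0.175 without pB, 0.0511 without the block).

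Of the glutamate receptor genes tested 10% were called higher and of the voltage-gated channel genes 25%, against 7.95% of all genes. Called lower were 0% and 5%, against 11.3%. Of 10 glutamate receptor genes tested, 1 was higher and 0 lower. Grik3, a kainate receptor subunit, had 408, 214 and 23.4 CPM in the NB sums and 1.02, 0.395 and 0 CPM in the NSC sums (log2 fold change 8.61 ± 0.87 SE, adjusted p = 0.000235), and the NB sums spread widely. Gria2, an AMPA receptor subunit, was not called, with 814, 1002 and 489 CPM in the NB sums and 823, 641 and 650.1 CPM in the NSC sums (log2 fold change 0.06 ± 0.70 SE, adjusted p = 0.964). Of 20 voltage-gated channel genes, 5 were higher, among them Scn3a, Scn3b, Cacna1b and Cacna1c, and 1 lower, with a median of 1.34. Scn3a, the sodium channel of immature neurons, had 174, 105 and 145 CPM in the NB sums and 2 counts in the whole NSC sort, a pooled 1406-fold (95% interval 389 to 11609.6, counting error only) difference (adjusted p = 0.00446). Its auxiliary subunit gene Scn3b had 272, 254 and 129 CPM in the NB sums and 3 NSC counts, a pooled 1704-fold (95% interval 583 to 8266, counting error only) difference (adjusted p = 0.00017). Both were on in all 3 NB sums. Scn8a, a sodium channel of mature axons, was not called, with 142, 138 and 172 CPM in the NB sums and 83, 47.1 and 82.6 CPM in the NSC sums (log2 fold change 1.06 ± 0.74 SE, adjusted p = 0.36). Kcnq3, a potassium channel subunit, was lower with 40.7, 5.01 and 0.675 CPM in the NB sums and 123, 202 and 3.48 CPM in the NSC sums (log2 fold change -3.09 ± 0.89 SE, adjusted p = 0.0358), and its sums overlapped. That call was also lost without the labelled oligodendrocytes (adjusted p = 0.0717). Channel genes higher were 5 without pA, 5 without pB, 5 without pC and 5 without the block. Leaving out a letter or the block ended the call of Scn3a (adjusted p = 0.0721 without pC) and Kcnq3 (0.243 without pB, 0.0906 without pC, 0.228 without the block).

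RNA-binding proteins that set neuronal splicing and mRNA stability were mostly higher. Of 19 tested, 11 were higher (Elavl2, Elavl3, Elavl4, Celf3, Celf4, Celf5, Rbfox2, Nova2, Srrm4, Ptbp2 and Syncrip) and 2 lower (Qk and Msi2), with a median of 2.58. The higher share was 57.9%, against 7.95% of all genes, and the lower share 10.5%, near the 11.3% of all genes. Srrm4, the regulator of neuronal microexons, had 309, 239 and 47.7 CPM in the NB sums and 0, 0.237 and 0.435 CPM in the NSC sums (log2 fold change 10.45 ± 1.37 SE, adjusted p = 0.00098). Celf5, a CUG-binding protein, had 66.6, 88.1 and 95.8 CPM in the NB sums and 0.341, 0.158 and 0 CPM in the NSC sums (log2 fold change 8.53 ± 1.04 SE, adjusted p = 0.000693). Elavl3, a neuronal Hu protein chosen after its values were seen, had 685, 649 and 991 CPM against 72.4, 377 and 35.6 CPM (log2 fold change 2.58 ± 0.77 SE, adjusted p = 0.0405), with the NSC sum of pB raised. Its log2 fold change was 5.44 (adjusted p = 8.19e-05) without the labelled oligodendrocytes, of which pB held 7. Qk (quaking, an RNA-binding protein of glia) was lower in every letter, with 339, 336 and 228 CPM in the NB sums and 2333, 4097 and 854 CPM in the NSC sums (log2 fold change -2.82 ± 0.39 SE, adjusted p = 0.00122). Msi2 (Musashi-2, of stem cells) was lower by less, with 378, 523 and 596 CPM in the NB sums and 948, 734 and 1047 CPM in the NSC sums (log2 fold change -0.90 ± 0.28 SE, adjusted p = 0.0487). Tra2a, a general splicing factor, was not called, with 367, 458 and 257 CPM in the NB sums and 155, 205 and 288 CPM in the NSC sums (log2 fold change 0.79 ± 0.33 SE, adjusted p = 0.122). Members higher were 9 without pA, 9 without pB, 6 without pC and 9 without the block. Calls that did not hold without a letter or the block were those of Elavl3 (adjusted p = 0.225 without pA, 0.143 without pC, 0.094 without the block) and Msi2 (0.287 without pA, 0.162 without pB, 0.186 without pC, 0.23 without the block).

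Subunits of the BAF chromatin remodelling complex, which exchanges progenitor for neuronal subunits as neurons form, were called in 1 direction. Of 21 tested, 8 were higher (Actl6b, Ss18l1, Smarca4, Smarcc1, Smarcc2, Smarcd1, Smarce1 and Arid1b) and 0 lower, with a median of 0.97. The higher share was 38.1%, against 7.95% of all genes, and the lower share 0%, against 11.3%. Actl6b (BAF53B), a neuronal subunit gene, had 78.9, 83 and 77.6 CPM against 0.682, 0 and 0.435 CPM (log2 fold change 7.82 ± 2.03 SE, adjusted p = 0.0318). Ss18l1 (CREST), another, had 104, 141 and 130.0 CPM against 7.16, 6.56 and 25.6 CPM (log2 fold change 3.53 ± 0.54 SE, adjusted p = 0.00207). Their progenitor counterparts Actl6a and Ss18 were not called. The ATPase gene Smarca4, chosen after its values were seen, had 440.0, 304 and 365 CPM against 76.2, 89.7 and 95.2 CPM (log2 fold change 2.06 ± 0.32 SE, adjusted p = 0.00213). Arid1a was not called, with 521, 427 and 106 CPM against 311, 184 and 50 CPM (log2 fold change 0.97 ± 0.42 SE, adjusted p = 0.135). Members higher were 5 without pA, 4 without pB, 4 without pC and 5 without the block. The call also needed every letter, or the block, for Actl6b (adjusted p = 0.0988 without pB, 0.186 without pC).

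Against these stood the astrocyte programme of the NSC sort. All 32 astrocyte genes of the list passed the filter on low counts. All 32 were called lower in the NB sort, with a median log2 fold change of -9.30. None of the 32 had sums that overlapped between the sorts, while 15.8% of all genes had NB sums below every NSC sum. Together they took 716, 735 and 509.5 CPM of the NB sums and 94655, 45793 and 90671 CPM of the NSC sums. Gpr37l1, an orphan receptor of astrocytes, had 1 count in the whole NB sort and 1338, 598 and 1227 CPM in the NSC sums, a pooled ratio of NSC to NB of 33129-fold (95% interval 5945 to 1308600.0, counting error only). Acsbg1, an acyl-CoA synthetase, had 1 count and 868, 300.3 and 795 CPM in the NSC sums (ratio 19465-fold (95% interval 3493 to 768896, counting error only)). Both passed the test (adjusted p = 7.7e-05 and adjusted p = 0.00105). The other members given were picked with their values known. Slc1a2 (the glutamate transporter GLT-1) had 294, 213 and 59.6 CPM in the NB sums and 31818, 18187 and 13961 CPM in the NSC sums (log2 fold change -7.01 ± 0.42 SE, adjusted p = 4.59e-05). Gja1 (connexin 43) had 4.7, 4.71 and 4.72 CPM against 4138, 1987 and 7934 CPM (log2 fold change -9.92 ± 0.76 SE, adjusted p = 6.91e-05). Apoe (apolipoprotein E) had 23.4, 8.35 and 47 CPM against 6503, 3086 and 12682 CPM (log2 fold change -8.21 ± 0.57 SE, adjusted p = 5.28e-05). A read of Apoe was found in 41 of 67 NB cells and 41 of 41 NSC cells, and in 17 of 65 and 39 of 39 after thinning. Clu (clusterin) had 0.147, 0.405 and 0.45 CPM against 5571, 1492 and 6130.1 CPM (log2 fold change -14.04 ± 1.41 SE, adjusted p = 0.000234). Aqp4 (the water channel of astrocytes) had 0.514, 0.152 and 0 CPM against 1832, 934 and 599 CPM (log2 fold change -12.48 ± 0.94 SE, adjusted p = 6.91e-05). Gfap (the intermediate filament of astrocytes) had 148, 63.6 and 241 CPM in the NSC sums and 1 count in the NB sort, and was found in 20 of 41 NSC cells (adjusted p = 0.000172). Of these 8, Slc1a2 kept the highest level in the NB sort. The call held in all 3 leave-outs for Gpr37l1, Acsbg1, Slc1a2, Gja1, Apoe, Clu, Gfap and Aqp4, and the count of members lower was 32 without pA, 32 without pB, 31 without pC and 32 without the block.

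Genes of the stem cell state were lower in the NB sort, with exceptions among the transcription factors both populations use. Of 25 NSC factors tested, 14 were lower (Sox9, Nr2e1, Hopx, Rfx4, Emx2, Id2, Id3, Id4, Thbs4, Vcam1, Egfr, Fabp7, Gli2 and Gli3) and 1 higher, with a median of -3.82. The lower share was 56%, against 11.3% of all genes, and the higher share 4%, against 7.95%. Rfx4, a factor of neural progenitors and astrocytes, had 214, 53.9 and 112 CPM in the NSC sums and 3 counts in the NB sort, a pooled ratio of NSC to NB of 1327-fold (95% interval 454 to 6441, counting error only) (adjusted p = 0.00121). Thbs4 (thrombospondin-4) had 0, 0 and 1.12 CPM in the NB sums and 298, 80.7 and 236 CPM in the NSC sums (log2 fold change -9.88 ± 1.74 SE, adjusted p = 0.00713). Thbs4 reads came from 13 of 41 NSC cells. Nr2e1, Sox9 and Egfr were picked with their values known. Nr2e1 (Tlx, required for stem cell maintenance) had 0.514, 0.962 and 2.92 CPM against 92, 72.4 and 169 CPM (log2 fold change -6.36 ± 0.78 SE, adjusted p = 0.000693). Sox9 (a factor of stem cells and astrocytes) had 2.57, 19.8 and 62.7 CPM against 239.6, 215 and 865 CPM (log2 fold change -4.40 ± 0.79 SE, adjusted p = 0.0047). Egfr, the EGF receptor of activated cells, had 45.9, 29.2 and 17.8 CPM against 236, 156 and 103 CPM (log2 fold change -2.44 ± 0.48 SE, adjusted p = 0.00708). In none of the 3 did the sums of the sorts overlap. Sox2, a factor of all neural progenitors, was not called, with 48.2, 41.8 and 318 CPM in the NB sums and 99.7, 72.3 and 472 CPM in the NSC sums (log2 fold change -0.75 ± 0.58 SE, adjusted p = 0.41). Nfia, another nuclear factor I gene, was not called either, with 318, 337 and 799 CPM in the NB sums and 537, 511 and 628 CPM in the NSC sums (log2 fold change -0.34 ± 0.31 SE, adjusted p = 0.487). Nfix, of the nuclear factor I family, was the 1 member higher, with 429, 444 and 532 CPM in the NB sums and 164, 191 and 132 CPM in the NSC sums (log2 fold change 1.54 ± 0.36 SE, adjusted p = 0.015). Members lower were 8 without pA, 8 without pB, 10 without pC and 11 without the block. Without a letter or the block the call was lost for Thbs4 (adjusted p = 0.0578 without pA), Egfr (0.0895 without pC) and Nfix (0.068 without pA, 0.101 without pB, 0.0646 without pC).

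Genes of Notch signalling, by which neighbours keep stem cells quiescent, were lower among its receptors and direct targets. Of 23 pathway genes tested, 8 were lower (Notch1, Notch2, Notch3, Hes1, Hes5, Hey1, Hey2 and Nrarp) and 2 higher (Hes6 and Mfng). The lower share was 34.8%, against 11.3% of all genes, and the higher share 8.7%, near the 7.95% of all genes. The median was -1.28, and no ligand tested was called. Hes5, a direct target of Notch, had 28.8, 31.2 and 520.2 CPM in the NSC sums and 2 counts in the NB sort (pooled ratio of NSC to NB 1599-fold (95% interval 442 to 13211, counting error only), adjusted p = 0.000596). Its NSC sum of pC was far above those of pA and pB. Hey2, another target, was at 0 in every NB sum, with 13.6, 10.2 and 12.6 CPM in the NSC sums, at least 144-fold lower in the NB sort (adjusted p = 0.0194). Notch1, a receptor chosen after its values were seen, had 174, 45.4 and 43.6 CPM against 383, 194 and 355 CPM (log2 fold change -2.12 ± 0.39 SE, adjusted p = 0.0053). Hes6, which opposes Hes1, and Mfng, a glycosyltransferase that modifies Notch, were higher. Hes6 had 61.9, 47.8 and 107 CPM against 2.9, 9.8 and 45.2 CPM (log2 fold change 2.60 ± 0.76 SE, adjusted p = 0.0386). Mfng had 48.1, 30.4 and 59.8 CPM against 0.17, 0 and 3.04 CPM (log2 fold change 6.95 ± 1.25 SE, adjusted p = 0.00772). The Hes6 call was also lost without the labelled oligodendrocytes (adjusted p = 0.0542). Adam10, the protease that cleaves Notch, was not called, with 162, 204 and 297 CPM in the NB sums and 123, 249 and 176 CPM in the NSC sums (log2 fold change 0.25 ± 0.30 SE, adjusted p = 0.613). Members lower were 6 without pA, 7 without pB, 3 without pC and 6 without the block. Leaving out a letter or the block ended the call of Notch1 (adjusted p = 0.0611 without pB, 0.0642 without pC, 0.104 without the block) and Mfng (0.0649 without pA). The same held for Hey2 (0.0752 without pA, 0.0965 without pC) and Hes6 (0.0993 without pA, 0.121 without pB, 0.135 without pC, 0.335 without the block).

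Receptors for growth factors, BMP, Wnt and hedgehog were also lower. Of 28 tested, 15 were lower (Fgfr1, Fgfr2, Pdgfrb, Erbb3, Ntrk2, Lifr, Il6st, Bmpr1a, Bmpr1b, Fzd1, Fzd2, Fzd7, Ptch1, Lpar1 and Ednrb) and 2 higher (Igf1r and Acvr1), with a median of -2.83. The lower share was 53.6%, against 11.3% of all genes, and the higher share 7.14%, near the 7.95% of all genes. Bmpr1b, a type I BMP receptor, had 294, 137 and 107 CPM in the NSC sums and 1 count in the NB sort (pooled ratio of NSC to NB 6718-fold (95% interval 1205 to 265406, counting error only), adjusted p = 5.7e-05). Pdgfrb, the PDGF receptor beta, had 139, 39.6 and 116 CPM in the NSC sums and 2 counts (ratio 1435-fold (95% interval 397 to 11862, counting error only), adjusted p = 0.000454). The partner type II BMP receptor Bmpr2 was not called, with 341, 254 and 152 CPM in the NB sums and 267, 247 and 82.1 CPM in the NSC sums (log2 fold change 0.42 ± 0.31 SE, adjusted p = 0.394). Fgfr3 (an FGF receptor, listed with the astrocyte genes) and Ptch1 (the hedgehog receptor) were picked with their values known. Fgfr3 had 0.147, 0.152 and 0 CPM against 688, 258 and 397 CPM (log2 fold change -11.65 ± 0.89 SE, adjusted p = 6.91e-05). Ptch1 had 34.5, 44.9 and 48.3 CPM against 334, 212 and 225 CPM (log2 fold change -2.50 ± 0.43 SE, adjusted p = 0.0039). Igf1r, the IGF-1 receptor, and Acvr1, another type I BMP receptor, were higher. Igf1r had 461, 459 and 513 CPM against 268, 163 and 162 CPM (log2 fold change 1.28 ± 0.36 SE, adjusted p = 0.0336). Acvr1 had 40.8, 37.6 and 28.1 CPM against 14.8, 3.95 and 8.69 CPM (log2 fold change 2.03 ± 0.63 SE, adjusted p = 0.0486). The list had 13 lower and 1 higher, with a median of -1.41, without the labelled oligodendrocytes. The calls of Igf1r and Acvr1 were then lost (adjusted p = 0.0611 and 0.0751). Members lower were 9 without pA, 10 without pB, 12 without pC and 10 without the block. Calls that did not hold without a letter or the block were those of Igf1r (adjusted p = 0.0515 without pA, 0.208 without pB, 0.174 without pC, 0.0913 without the block) and Acvr1 (0.137 without pA, 0.309 without pB, 0.172 without pC, 0.0847 without the block).

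The 2 programmes were also summed in each cell. These are the cells whose sums gave the calls, so the levels describe them and add no further support. Summed over the astrocyte list, NB cells ranged from 13.8 to 2374 CPM (median 562) and NSC cells from 1269 to 131853 CPM (median 93528). The NSC cells labelled oligodendrocyte lay between 1269 and 9442 CPM, and those labelled qNSC1 between 39806 and 131853 CPM. Over the microtubule list, NB cells ranged from 16119 to 64009 CPM and NSC cells from 2509 to 16888 CPM. The lowest NB cell thus lay just below the highest NSC cell on the microtubule list, and the lowest NSC cells lay within the NB range on the astrocyte list. The 5 NB cells labelled TAP lay among the other NB cells on both lists.

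**Figure D2:**
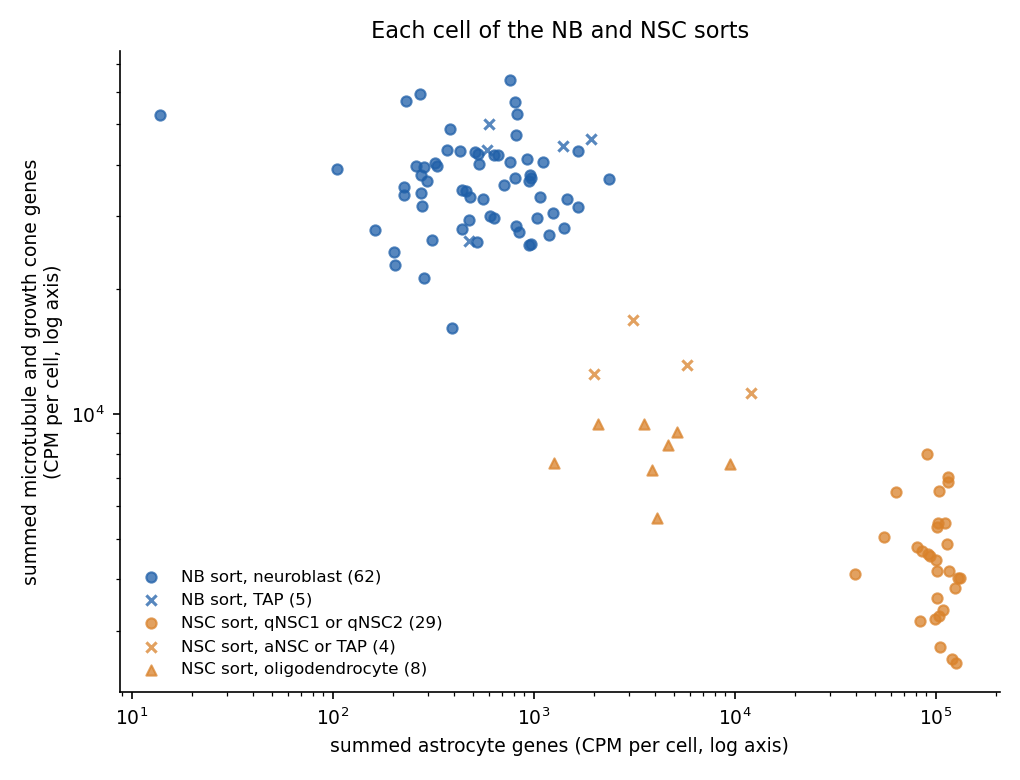
Each of the 108 cells by its summed level of the 32 astrocyte genes (horizontal axis, CPM per cell, log scale) and of the 30 microtubule and growth cone genes (vertical axis, CPM per cell, log scale), coloured by sort with symbols for the labelled type. NB cells sit at 16119 CPM or more on the vertical axis, and the NSC cells labelled qNSC1 sit at 39806 CPM or more on the horizontal axis.

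The called genes of the cell cycle were all higher in the NB sort, and most members were not called. Called higher were 21.1% of the G1 list, 18.2% of the S phase list and 4.55% of the G2 and mitosis list, against 7.95% of all genes. Of 19 genes of G1 cyclins, kinases and inhibitors, 4 were higher (Ccnd2, Cdk4, Cdkn1b and Btg1), none lower. Ccnd2, the D-type cyclin of neural progenitors, had 2294, 1781 and 8357 CPM in the NB sums and 102, 317 and 919.6 CPM in the NSC sums (log2 fold change 3.57 ± 0.64 SE, adjusted p = 0.00443). Its partner kinase gene Cdk4 had 257, 228 and 280.2 CPM in the NB sums and 13.1, 36.6 and 58.7 CPM in the NSC sums (log2 fold change 3.16 ± 0.50 SE, adjusted p = 0.00235). Rb1, the retinoblastoma gene they act on, was not called, with 106, 49.7 and 12.4 CPM in the NB sums and 223, 79 and 29.6 CPM in the NSC sums (log2 fold change -1.05 ± 0.56 SE, adjusted p = 0.223). Of 22 genes of DNA replication and S phase, 4 were higher (Mcm6, Mcm7, Tyms and Lig1) and none lower (median 1.11). Mcm7, of the replicative helicase, had 188, 183 and 114 CPM against 2.39, 32.9 and 10 CPM (log2 fold change 3.65 ± 0.74 SE, adjusted p = 0.00816). Mcm6, of the same helicase, had 21.2, 47.5 and 146 CPM against 2.05, 10 and 15.6 CPM (log2 fold change 2.98 ± 0.78 SE, adjusted p = 0.0258). Rrm2, which makes deoxynucleotides, was not called, with 17.4, 18.9 and 622 CPM against 0, 29.1 and 55.2 CPM (log2 fold change 2.35 ± 1.13 SE, adjusted p = 0.178). Of 22 genes of G2 and mitosis, 1 was higher and none lower, although the median was 2.85. That member was Hmgb2, a chromatin protein of dividing cells, with 68.6, 83.8 and 809 CPM in the NB sums and 7.16, 73.5 and 150.4 CPM in the NSC sums (log2 fold change 2.07 ± 0.61 SE, adjusted p = 0.039). Its call was also lost without the labelled oligodendrocytes (adjusted p = 0.123). Mki67, the proliferation marker, had 161, 195 and 668 CPM in the NB sums and 0.852, 168 and 0.869 CPM in the NSC sums (log2 fold change 4.01 ± 1.85 SE, adjusted p = 0.162). Top2a, a topoisomerase gene picked with its values known, had 164, 208 and 538 CPM against 2.73, 261 and 0 CPM (log2 fold change 3.48 ± 1.68 SE, adjusted p = 0.178). In both the NSC sum of pB stood apart. In that sum 1 cell labelled TAP held 98.0% of the Mki67 counts of the whole NSC sort and 98.3% of its Top2a counts. Within letters, 22 of 22 members of the G2 and mitosis list lay above 0 in pA and in pC and 6 of 22 in pB. The number of members called higher was 0 without pA, 9 without pB, 0 without pC and 0 without the block, and 7 with DESeq2. A Mki67 read was found in 11 of 67 NB cells and 10 of 41 NSC cells, and in 9 of 65 and 3 of 39 after thinning to 20000 counts. The S phase count was 1 without pA, 4 without pB, 0 without pC and 1 without the block, and that of the G1 list 3 without pA, 3 without pB, 2 without pC and 1 without the block. With 35 further NSC and NSC-B cells of a letter pE added and no block, the S phase count was 0, the G1 count 1 and the G2 and mitosis count 0. The call also needed every letter, or the block, for Ccnd2 (adjusted p = 0.125 without the block) and Mcm7 (0.0952 without pC). This was also true of Mcm6 (0.0599 without pA, 0.186 without pC, 0.0867 without the block) and Hmgb2 (0.211 without pA, 0.29 without pC, 0.389 without the block).

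Genes of cytosolic ribosomal proteins were higher in the NB sum of every letter. Of 30 tested, 23 were called higher and none lower, and all 30 lay above 0 in each of the 3 letters, with medians of log2 ratios of 1.48, 1.59 and 1.41. Summed, they took 5394, 7562 and 27110.4 CPM of the NB sums and 1835, 2561 and 10524 CPM of the NSC sums. The pC sums were the highest of each sort, so that the NSC sum of pC was above the NB sums of pA and pB. For 5 of the 30 the NB sums lay above every NSC sum, as they did for 14.5% of all genes. Rps9 had 278, 322 and 2386 CPM in the NB sums and 38.9, 84.8 and 629 CPM in the NSC sums (log2 fold change 2.25 ± 0.47 SE, adjusted p = 0.00967). Rpl32 had 118, 209.9 and 1124 CPM against 17, 51.3 and 482 CPM (log2 fold change 2.07 ± 0.43 SE, adjusted p = 0.00901). Rpl3 was not called, with 266, 386 and 1084 CPM against 139, 136 and 820.0 CPM (log2 fold change 0.96 ± 0.33 SE, adjusted p = 0.0651). These calls rest on the pairing by letter: the count was 11 without pA, 0 without pB, 6 without pC and 0 without the block. Ribosomal protein genes have many processed pseudogenes that can share reads with them, and how the counting treated these is not stated. Without a letter or the block the call was lost for Rps9 (adjusted p = 0.0692 without pB, 0.0694 without pC, 0.425 without the block) and Rpl32 (0.0517 without pA, 0.0897 without pB, 0.628 without the block).

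**Figure D3:**
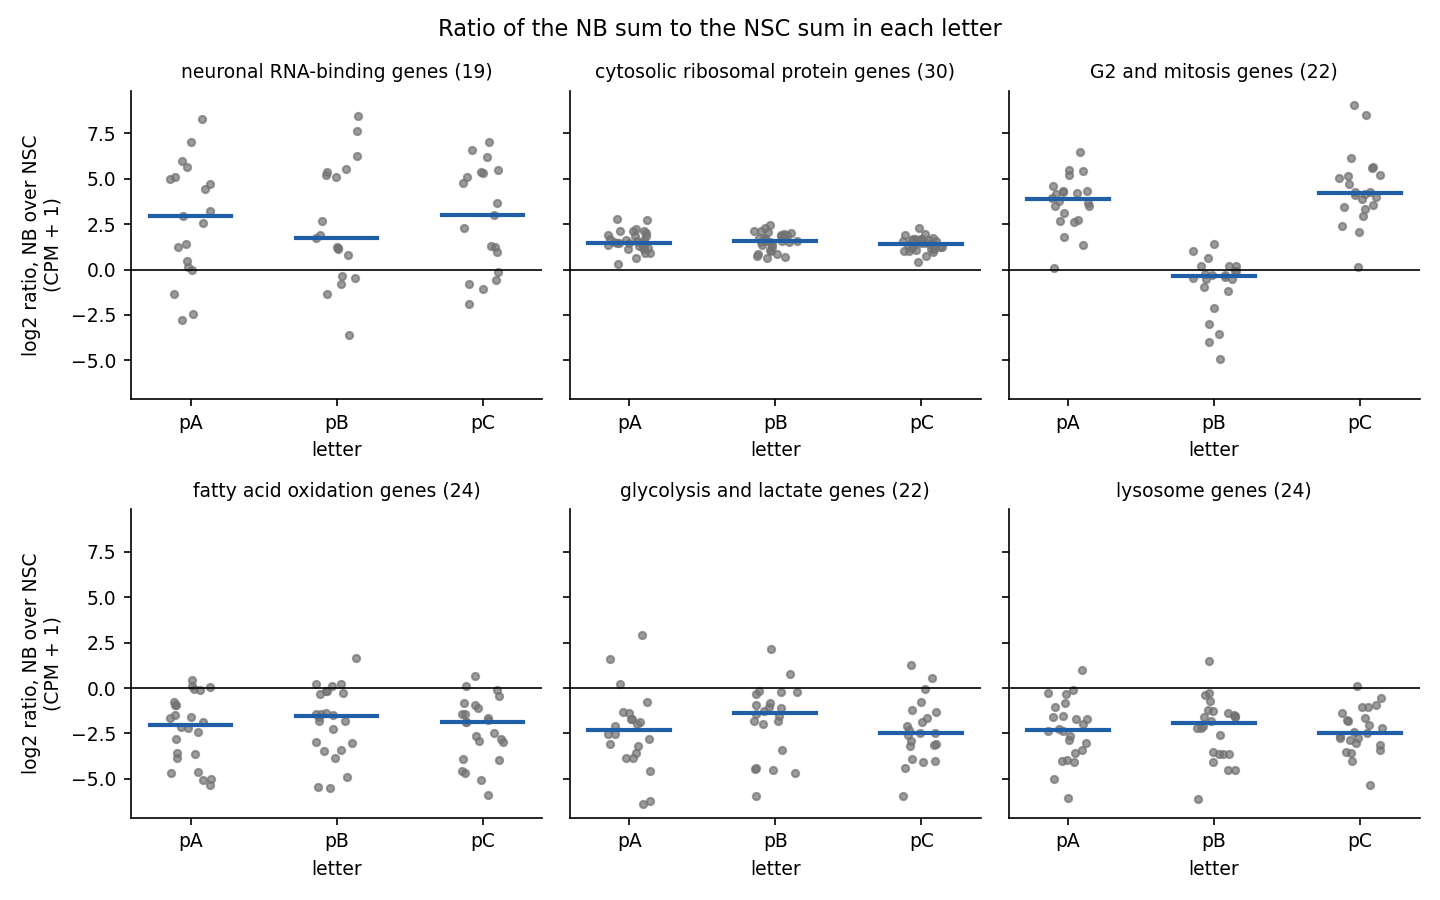
Log2 ratio of NB over NSC on the CPM + 1 scale (vertical axis) in each letter (horizontal axis) for 6 lists, 1 grey point per tested member and a blue bar at the median. The ribosomal points lie above 0 in all 3 letters, the G2 and mitosis points drop in pB, and the medians of the fatty acid oxidation, glycolysis and lysosome lists lie below 0 in every letter.

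Metabolic genes were lower in the NB sort by pathway. Of 24 genes of fatty acid oxidation, 13 were lower (54.2%, against 11.3% of all genes) and none higher (median -2.03). Cpt1a, which controls entry of fatty acids into mitochondria and was chosen after its values were seen, had 10.9, 14.5 and 11.2 CPM in the NB sums and 391, 125 and 191 CPM in the NSC sums (log2 fold change -4.05 ± 0.53 SE, adjusted p = 0.000966). Acsl6, an acyl-CoA synthetase, had 32.6, 52.7 and 19.8 CPM in the NB sums and 1355, 601 and 1216 CPM in the NSC sums (log2 fold change -4.99 ± 0.61 SE, adjusted p = 0.000715). Ppara, the nuclear receptor that drives the pathway, was at 0 in every NB sum with 23.3, 13.3 and 22.6 CPM in the NSC sums (at least 216-fold lower, adjusted p = 0.0242). Echs1, an enzyme of the oxidation cycle, was not called, with 168, 132 and 132 CPM in the NB sums and 183, 161 and 178 CPM in the NSC sums (log2 fold change -0.28 ± 0.27 SE, adjusted p = 0.509). Of 22 genes of glycolysis and lactate, 15 were lower (68.2%, against 11.3% of all genes) and none higher (median -2.36). The glucose transporter gene Slc2a1 had 0.441, 3.04 and 1.12 CPM in the NB sums and 118, 91 and 127 CPM in the NSC sums (log2 fold change -6.26 ± 0.72 SE, adjusted p = 0.000486). Pdk4, which inhibits pyruvate dehydrogenase, had 0.441, 0.911 and 0.675 CPM in the NB sums and 20.1, 40.2 and 13.9 CPM in the NSC sums (log2 fold change -5.13 ± 0.99 SE, adjusted p = 0.00667). Aldoa (aldolase A), picked with its values known, had 19.3, 10.6 and 17.3 CPM against 484, 294 and 389 CPM (log2 fold change -4.63 ± 0.44 SE, adjusted p = 0.00019). Pfkp, a phosphofructokinase gene, lay the other way without being called, with 479, 644 and 219.9 CPM in the NB sums and 156, 144 and 153 CPM in the NSC sums (log2 fold change 1.38 ± 0.46 SE, adjusted p = 0.0606). By contrast, of 22 genes of oxidative phosphorylation 1 was lower (4.55%, against 11.3% of all genes). It was Sdha, of complex II, with 123, 58.1 and 118 CPM in the NB sums and 404, 243 and 173 CPM in the NSC sums (log2 fold change -1.44 ± 0.34 SE, adjusted p = 0.016). Atp5b, of the ATP synthase, was not called, with 410.1, 304 and 603 CPM against 523, 391 and 761 CPM (log2 fold change -0.35 ± 0.25 SE, adjusted p = 0.375). The fatty acid count was 9 without pA, 5 without pB, 7 without pC and 10 without the block, and the glycolysis count 7 without pA, 5 without pB, 8 without pC and 12 without the block. Leaving out a letter or the block ended the call of Pdk4 (adjusted p = 0.0506 without pA, 0.0798 without pB), Ppara (0.0854 without pA, 0.112 without pC) and Sdha (0.137 without pA, 0.175 without pB, 0.0703 without the block).

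Cholesterol synthesis and lysosome genes were lower as well. Of 21 cholesterol genes, 9 were lower (42.9%, against 11.3% of all genes) and none higher (median -1.65). Msmo1, a sterol demethylase, had 11, 10.4 and 25 CPM in the NB sums and 793, 426 and 252 CPM in the NSC sums (log2 fold change -4.69 ± 0.81 SE, adjusted p = 0.00385). Of 24 lysosome genes, 18 were lower (75%, against 11.3% of all genes) and none higher (median -2.11). Tfeb, a factor that switches on lysosome genes, was at 0 in every NB sum with 15, 15.7 and 5.65 CPM in the NSC sums (at least 182-fold lower, adjusted p = 0.00187). Lamp1, a lysosomal membrane protein picked with its values known, had 16.3, 26.2 and 67.9 CPM against 268, 333 and 505 CPM (log2 fold change -3.45 ± 0.49 SE, adjusted p = 0.00131). Npc2, a lysosomal cholesterol carrier, was not called, with 172, 144 and 251 CPM in the NB sums and 86.6, 174 and 369.8 CPM in the NSC sums (log2 fold change 0.05 ± 0.35 SE, adjusted p = 0.945). The cholesterol count was 4 without pA, 3 without pB, 7 without pC and 8 without the block, and the lysosome count 13 without pA, 12 without pB, 9 without pC and 13 without the block. The calls of Msmo1, Tfeb and Lamp1 held with any 1 letter left out.

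**Figure D4:**
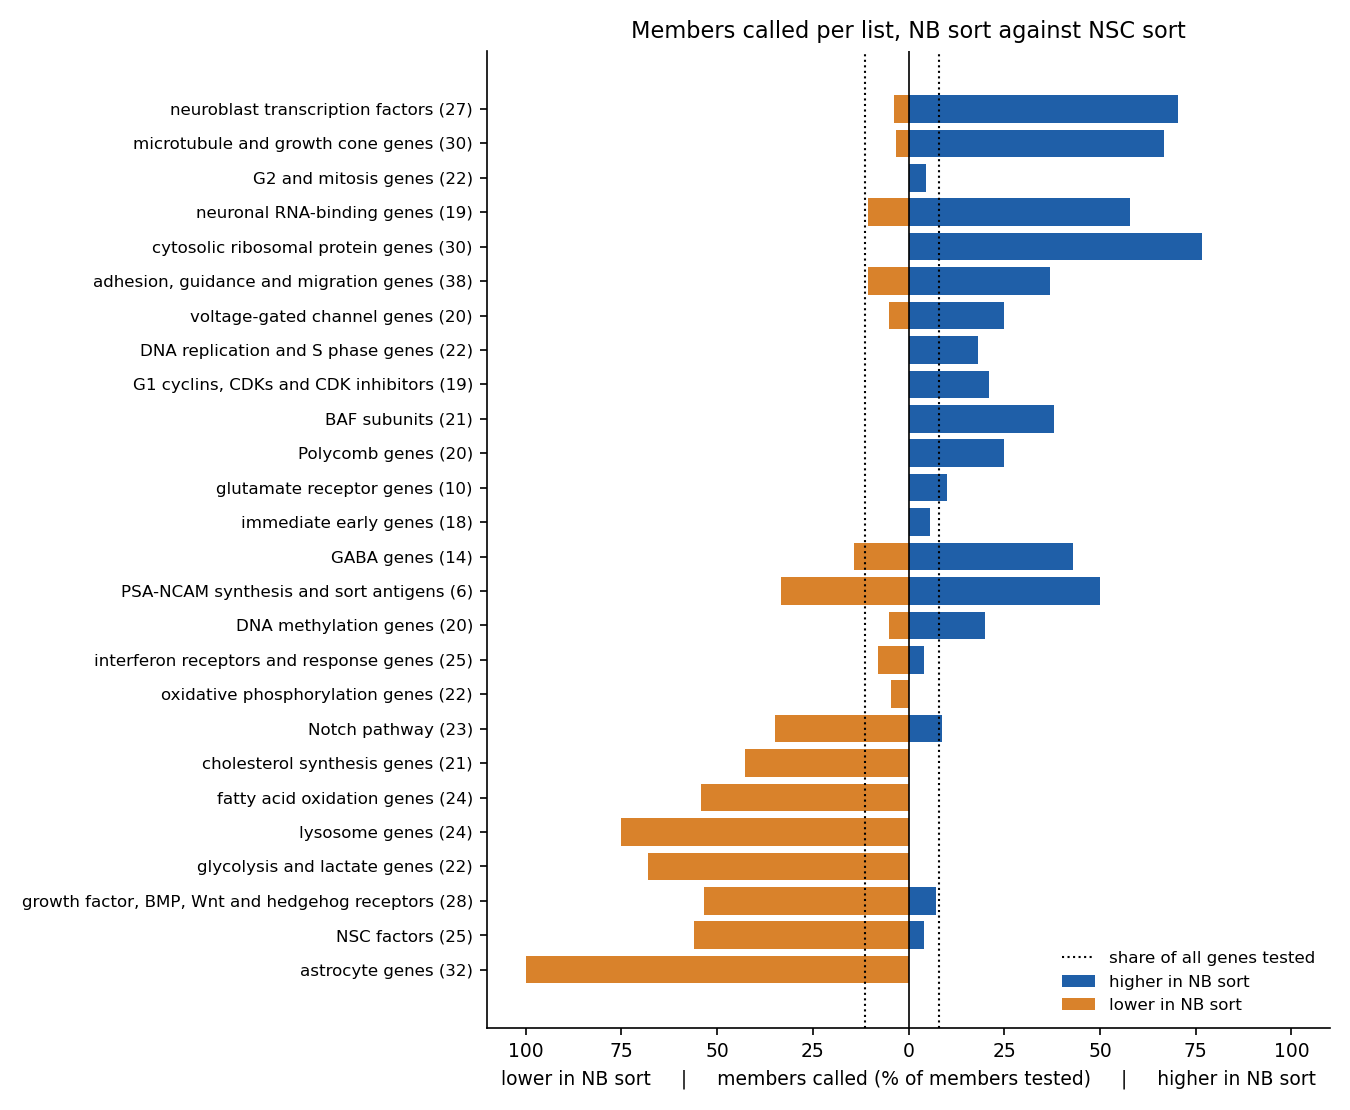
Share of tested members called in each of 26 gene lists (number tested in brackets), lower in the NB sort to the left (orange) and higher to the right (blue), in percent, with dotted lines at the shares over all genes tested, 11.3% lower and 7.95% higher. Astrocyte genes are called lower in full, and 76.7% of ribosomal protein genes, 70.4% of neuroblast transcription factors and 66.7% of microtubule genes are called higher.

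Most regulators of DNA methylation and of Polycomb repression were not called. Called higher were 20% and 25% of those tested, against 7.95% of all genes, and lower 5% and 0%, against 11.3%. Of 20 DNA methylation genes tested, 4 were higher (Dnmt1, Uhrf2, Tet3 and Tdg) and 1 lower (Mbd2), with a median of 0.40. Tdg, the glycosylase that removes oxidised methylcytosine, had 204, 192 and 144 CPM in the NB sums and 20.1, 62.4 and 34.8 CPM in the NSC sums (log2 fold change 2.37 ± 0.39 SE, adjusted p = 0.00317). The dioxygenase gene Tet3 had 323, 258 and 175 CPM in the NB sums and 108, 121 and 13.5 CPM in the NSC sums (log2 fold change 1.86 ± 0.54 SE, adjusted p = 0.0378). Tet2 was not called, with 439.5, 520.4 and 201 CPM against 278, 371 and 77.8 CPM (log2 fold change 0.79 ± 0.41 SE, adjusted p = 0.213). Mbd2, which binds methylated DNA, was lower with 3.89, 2.13 and 9.89 CPM against 27.8, 18.3 and 71.3 CPM (log2 fold change -2.92 ± 0.67 SE, adjusted p = 0.0141). Of 20 Polycomb genes, 5 were higher (Ezh2, Jarid2, Mtf2, Pcgf2 and Kdm6b) and none lower (median 0.92). Pcgf2, of a Polycomb complex, had 45.3, 43 and 74 CPM against 12.4, 3.63 and 5.21 CPM (log2 fold change 2.92 ± 0.70 SE, adjusted p = 0.0167). Mtf2, an accessory subunit of another, had 313, 356 and 191 CPM against 19.4, 69.6 and 52.6 CPM (log2 fold change 2.79 ± 0.55 SE, adjusted p = 0.00738). Rbbp4, a histone chaperone, was not called, with 269, 331 and 168 CPM against 215, 98.9 and 119.9 CPM (log2 fold change 0.82 ± 0.39 SE, adjusted p = 0.173). The DNA methylation count of higher members was 1 without pA, 1 without pB, 1 without pC and 2 without the block, and the Polycomb count 4 without pA, 1 without pB, 2 without pC and 4 without the block. Calls that did not hold without a letter or the block were those of Mtf2 (adjusted p = 0.0634 without pB) and Mbd2 (0.0957 without pB, 0.118 without pC, 0.0517 without the block). This was also true of Pcgf2 (0.147 without pB, 0.111 without pC) and Tet3 (0.151 without pA, 0.0815 without pB, 0.0623 without pC, 0.142 without the block).

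Few interferon and immediate early genes were called. The shares higher were 4% and 5.56%, against 7.95% of all genes, and those lower 8% and 0%, against 11.3%. Of 25 interferon receptor and response genes tested, 1 was higher and 2 lower (median -0.10). The kinase genes were split. Jak2 was higher, with 189, 170.4 and 75.6 CPM against 42.4, 73.4 and 19.6 CPM (log2 fold change 1.74 ± 0.40 SE, adjusted p = 0.0138). Jak1 was lower, with 85.8, 35.9 and 22.5 CPM against 307, 158 and 115 CPM (log2 fold change -2.09 ± 0.36 SE, adjusted p = 0.0035). Ifngr1, the interferon gamma receptor, was lower with 5.59, 8.15 and 6.3 CPM in the NB sums and 55.1, 28.4 and 56.1 CPM in the NSC sums (log2 fold change -2.76 ± 0.59 SE, adjusted p = 0.0108). Ifnar1, of the type I receptor, was not called, with 214, 305 and 74.9 CPM against 70.7, 94.9 and 50.8 CPM (log2 fold change 1.29 ± 0.45 SE, adjusted p = 0.0709). Of 18 immediate early genes, which respond quickly to stimulation and to tissue dissociation, 1 was higher and none lower. Dusp1, a phosphatase, had 111, 52.1 and 44.7 CPM in the NB sums and 8.01, 18.7 and 6.08 CPM in the NSC sums (log2 fold change 2.87 ± 0.85 SE, adjusted p = 0.0398). Egr1, a zinc finger factor, was not called, with 312, 308 and 344 CPM against 0.17, 61.5 and 119.5 CPM (log2 fold change 4.55 ± 1.91 SE, adjusted p = 0.126). The call also needed every letter, or the block, for Jak1 (adjusted p = 0.0659 without pC, 0.0614 without the block) and Jak2 (0.0727 without pA, 0.0749 without pB, 0.085 without pC, 0.134 without the block). The same held for Ifngr1 (0.0849 without pA, 0.0601 without pB, 0.096 without pC) and Dusp1 (0.239 without pA, 0.113 without pB, 0.0796 without pC, 0.108 without the block).

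Outside the lists, the 8 genes with the largest called change in each direction, among those at 50 CPM or more in all 3 letters of the higher sort, were on in 1 sort and near 0 in the other. Higher in the NB sort were Trpc4 (a cation channel), Amer3, Islr2, Trp53i11, Ina (the neuronal filament internexin), D430019H16Rik, Nsg2 (a neuronal vesicle protein) and Zfp57 (a zinc finger protein that binds imprinted regions). Trpc4 and Amer3 were at 0 in every NSC sum, with 92.2, 122 and 74.7 CPM in the NB sums for Trpc4 (at least 734-fold higher, adjusted p = 0.00551). Amer3 had 83, 52.7 and 68.6 CPM in the NB sums (at least 455-fold higher, adjusted p = 0.00762). Nsg2 had 429.7, 472 and 713 CPM against 0.17, 1.03 and 1.3 CPM (log2 fold change 9.54 ± 0.65 SE, adjusted p = 5.18e-05). The sums of the sorts did not overlap in any of these. Islr2 had 720.0, 418 and 689 CPM against 0.341, 0 and 0.869 CPM (log2 fold change 11.21 ± 0.94 SE, adjusted p = 0.000107). Zfp57 had 879, 1059 and 667 CPM against 0.341, 7.27 and 0 CPM (log2 fold change 9.39 ± 1.41 SE, adjusted p = 0.00188). The NB sums of the other 3 lay between 96.9 and 217 CPM and no NSC sum of theirs passed 0.341 CPM (adjusted p = 0.00023 for Trp53i11, adjusted p = 0.0037 for Ina and adjusted p = 0.00435 for D430019H16Rik). Lower were Dio2 (which activates thyroid hormone), Gm973, Adhfe1, F3 (tissue factor), Ramp1, Aifm3, Cyp4f15 and Eva1a. Of these, 7 had no read in any NB sum and F3 had 2 counts. Dio2 had 503, 129 and 419.8 CPM in the NSC sums (at least 3356-fold lower, adjusted p = 0.000223). F3 had 1110.2, 480.0 and 632 CPM in the NSC sums (pooled ratio of NSC to NB 12749-fold (95% interval 3529 to 105284, counting error only), adjusted p = 5.7e-05). Eva1a had 146, 91.9 and 112 CPM in the NSC sums (at least 1377-fold lower, adjusted p = 0.00106). The other 5 were between at least 1347-fold lower (Adhfe1) and at least 1768-fold lower (Gm973), with Ramp1 at 222, 68.4 and 283 CPM in the NSC sums. Without a letter or the block the call was lost for Ina (adjusted p = 0.0533 without pC), Adhfe1 (0.0555 without pC) and Amer3 (0.0593 without pB, 0.0772 without pC).

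The NB sort was also set against the ASTRO and OLIGO sorts of the same letters, which share the NB sums with the comparison above. The OLIGO sort holds 50 cells, all labelled oligodendrocyte, and the ASTRO sort 48 cells labelled qNSC1 (14), qNSC2 (5), aNSC (11), TAP (8) and neuroblast (10), so the ASTRO sums hold neuroblasts too. Genes called higher in the NB sort than in each of the 3 other sorts numbered 85 of 14348 (0.592%), and genes called lower than in each 404 (2.82%). Among the 85 were Dcx, Sp8, Sox4, Ncam1, St8sia4, Gad1, Nrxn3, Prokr2, L1cam, Scn3b, Grik3, Celf5, Islr2 and Nsg2. St8sia2 was not among them: its ASTRO sums were 2.05, 67 and 9.75 CPM (log2 fold change NB over ASTRO 3.63 ± 1.19 SE, adjusted p = 0.132). Ncam1 had 1757 ± 642 CPM (SD, n = 3 letters) in the NB sort, 842 ± 179 CPM in the OLIGO sort, 666 ± 104 CPM in the ASTRO sort and 567 ± 58.4 CPM in the NSC sort. The OLIGO and ASTRO sums overlapped, as did the ASTRO and NSC sums, and no NB sum overlapped another sort. Dcx had 202, 1133 and 263 CPM in the ASTRO sums and 0.69, 1.28 and 0.275 CPM in the OLIGO sums (log2 fold change NB over ASTRO 2.56 ± 0.46 SE, adjusted p = 0.0101). Vcan (versican, a matrix proteoglycan), chosen after its values were seen, had 1312, 2997 and 360.0 CPM in the NB sums, 52.3, 71.4 and 16.9 CPM in the NSC sums, 401, 619.8 and 76.6 CPM in the ASTRO sums and 0, 1.89 and 0 CPM in the OLIGO sums. It was above every other sum of its letter in the NB sort. Among the 404 were Slc1a3, Apoe, Clu, Gfap, Qk, Aldoa, Slc2a1, Lamp1, Tfeb, Jak1, Ptch1, Olig2 and Foxj1. Apoe had 5180.0, 2905 and 2883 CPM in the ASTRO sums and 736, 355 and 918 CPM in the OLIGO sums against 23.4, 8.35 and 47 CPM in the NB sums. The counts were 4, 4 and 19 higher and 115, 141 and 224 lower with pA, pB or pC left out.

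Markers of other cells were checked in both sorts. Oligodendrocyte markers were called lower in 14 of 16, with a summed level of 11977, 51744 and 229 CPM in the NSC sums and 239, 421 and 107 CPM in the NB sums. The NSC sums of pA and pB, which hold all 8 labelled oligodendrocytes, were high and that of pC was within the NB range. Mbp (myelin basic protein), chosen after its values were seen, had 36.7, 34.6 and 11.5 CPM in the NB sums and 1263, 3172 and 12.2 CPM in the NSC sums (log2 fold change -5.41 ± 1.40 SE, adjusted p = 0.0238). Without the labelled oligodendrocytes 3 of 16 were called lower and 1 higher, and Mbp stood at a log2 fold change of 0.65 (adjusted p = 0.429). The 3 were Cnp, Olig1 and Olig2, a factor that stem cells and TAPs also use, and the 1 higher was Mog, at 3.15 (adjusted p = 0.000414). With pA, pB or pC left out, 2, 3 and 15 of the 16 were called lower. Summed over the 16 markers, these 8 cells held 86784 to 119994 CPM and the NSC cells labelled qNSC1 154 to 1522 CPM. Leaving the 8 out was therefore bound to remove most of the difference and is no separate result. Of the oligodendrocyte precursor markers, 3 of 7 were tested, 1 was higher and 1 lower. Cacng4, a receptor regulator, was higher (62.8, 111 and 205 CPM against 8.52, 4.66 and 14.3 CPM, log2 fold change 3.69 ± 0.50 SE, adjusted p = 0.00113). Cspg4 (the proteoglycan NG2) was lower, at 0 in every NB sum and 0.511, 1.66 and 5.65 CPM in the NSC sums (at least 22.4-fold lower, adjusted p = 0.0461). Gpr17, a receptor of precursors, was not called (0, 0.253 and 0 CPM against 13.1, 7.27 and 0 CPM, log2 fold change -5.79 ± 2.03 SE, adjusted p = 0.0849), and stood at 2.82 (adjusted p = 0.472) without the labelled oligodendrocytes. Cspg4 and Gpr17 were chosen after their values were seen. Pdgfra, their defining marker, was too low to be tested.

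**Figure D5:**
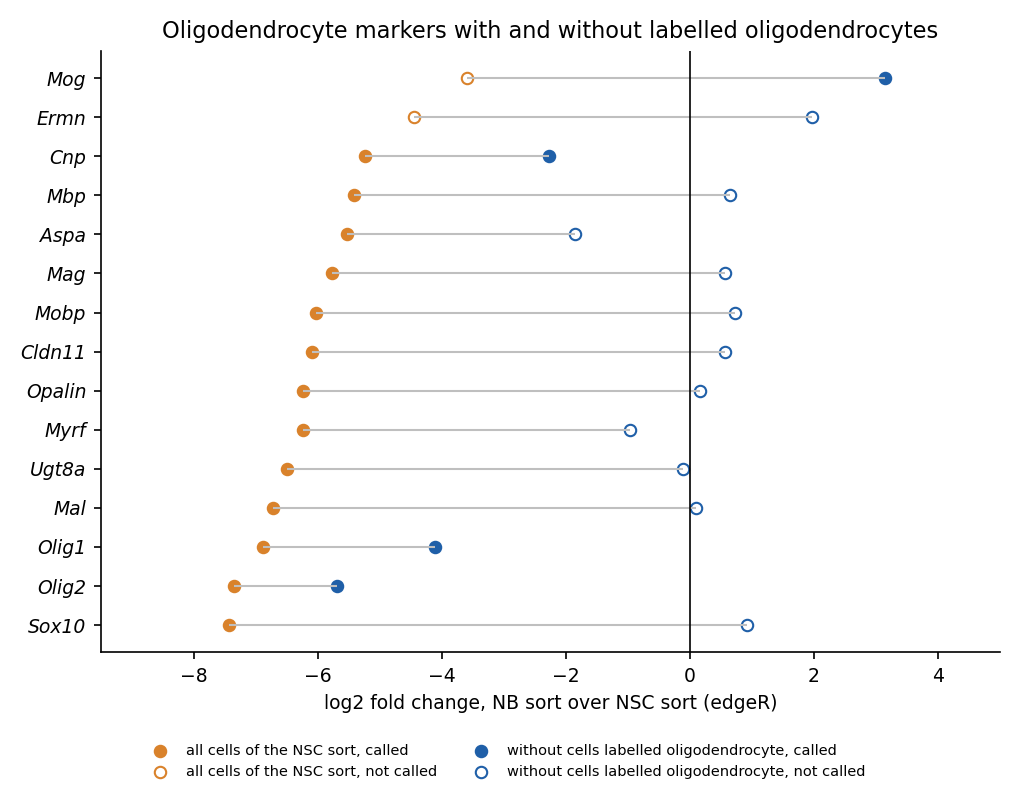
Log2 fold change of NB over NSC (horizontal axis) for 15 oligodendrocyte markers with all cells (orange) and without the 8 NSC cells labelled oligodendrocyte (blue), filled where called, a grey line joining the 2 values of a gene. Most of the 15 move from below -5 to near 0, and Cnp, Olig1 and Olig2 stay below 0 and called.

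Markers of microglia, blood vessels, ependyma, mature neurons and blood were checked in the same way. Of 10 microglia markers 7 were at 0 in the NB sort and 6 in the NSC sort, 2 were tested and 1 was lower. Their summed level was 0.882 to 8.54 CPM in the NB sums and 36.3 to 85.6 CPM in the NSC sums. C1qa, C1qb, C1qc, Tyrobp, Aif1 and Tmem119 were at 0 in both sorts. Of 10 endothelial and pericyte markers, with a summed level of 43.6 to 161 CPM in the NB sums and 89.5 to 287 CPM in the NSC sums, 3 were tested and Pdgfrb was lower, while Pecam1 was not called, with 48.9, 43.1 and 161 CPM against 25.4, 41.2 and 171 CPM (log2 fold change 0.29 ± 0.32 SE, adjusted p = 0.579). Of 9 ependymal markers, Foxj1 (0, 0.0506 and 0 CPM against 8.69, 18.2 and 16.9 CPM, adjusted p = 0.00148) and Rarres2 (0.367, 0 and 2.47 CPM against 41.9, 17.5 and 84.3 CPM, log2 fold change -6.34 ± 1.41 SE, adjusted p = 0.0126) were lower and Mia was higher, with a summed level of 4.95 to 12.8 CPM in the NB sums and 40.4 to 122 CPM in the NSC sums. Of 10 mature neuron markers, Snap25 (85.7, 252 and 277 CPM against 4.77, 12.6 and 20.9 CPM, log2 fold change 4.14 ± 0.92 SE, adjusted p = 0.0123) and Syt1 were higher and Ppp1r1b was lower, with a summed level of 101 to 433 CPM in the NB sums and 31.1 to 126 CPM in the NSC sums. The glutamatergic transporters Slc17a6 and Slc17a7 and the dopamine receptors Drd1 and Drd2, which define striatal and cortical neurons, were too low to be tested. Alas2, the 1 erythroid marker tested, was not called, with 1.91, 1.77 and 0 CPM against 3.92, 3.63 and 1.3 CPM (adjusted p = 0.447). The part of these cell types in the results was not tested. Leaving out a letter or the block ended the call of Cnp (adjusted p = 0.0522 without pA) and Snap25 (0.073 without pA, 0.0778 without pC, 0.0626 without the block). This was also true of Rarres2 (0.105 without pA, 0.0622 without pB), Mbp (0.14 without pA, 0.136 without pB) and Cspg4 (0.143 without pA, 0.202 without pB, 0.185 without pC).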

How the data were processed

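A matrix of single-cell counts was deposited as whole reads per gene, made by the authors with STAR and featureCounts on GRCm38 (mm10), per the submitters' processing notes; versions, filters and strand setting are not stated there. Of the 2584 cells it holds, 540 were matched to labelled cells by title and used, and 2044 were read by no step. Counts were summed per sort and letter (12 sums of the NB, NSC, ASTRO and OLIGO sorts, at least 8 cells each) and fitted together with edgeR 4.0.16 in R 4.3.3: filterByExpr, TMM, quasi-likelihood F test, letter as a block, Benjamini-Hochberg adjustment over the 14348 genes tested. Deviations from the sort means correlated at 0.186, 0.162 and 0.406 between the NB and NSC sums of pA, pB and pC. Between different letters the correlations were -0.278 to 0.152. Deviations from a sort mean cancel over its letters, so the values between different letters are no independent reference. The pB value was close to the 0.152 of NB pB with NSC pA, and the highest was that of pC, the shallowest letter. These correlations therefore cannot decide whether the block was needed. The letter was used as a block because the series design calls it a biological replicate. That both sorts of a letter came from the same mice was assumed and could not be checked here. Symbols came from GENCODE M21 (35455 of 35606 identifiers). The fit was tested on simulated data. Alternatives used limma 3.58.1 and DESeq2 1.42.0 and are given in the closing section.

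The members and gene lists were chosen with earlier results of these data known. Named genes were all antigen genes, up to 2 called members per list and direction with the largest change among those at 10 CPM or more and 1 direction in 3 of 3 letters, the highest uncalled member, 8 genes outside the lists per direction at 50 CPM or more in 3 letters, and the highest member of each marker list. Genes picked otherwise are named as such. Some genes that the rule or a list holds are not reported here. Of 147 named genes tested, 107 of them by the rule, 31 overlap another counted gene on the same strand and 77 on either, and their counts are less certain. A gene at 0 in a sort was given a floor of 3 counts over the sort. Shares of cells with a read were recomputed after thinning to 20000 counts. Intervals cover counting error only (95%). No pair of cells had identical counts.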

Additional observations from a re-analysis of the deposited data

How the results depend on the processing

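The main counts of genes higher and lower in the NB sort than in the NSC sort, 1140 and 1615, rested on the letter as a block. Without the replicate block, the pairing by letter, they were 519 and 1171, and the counts against every other sort were 21 higher and 269 lower in place of 85 and 404. With the NB and NSC sums alone, still blocked, they were 695 and 958. DESeq2 gave 1891 and 2436 (315 and 742 against every sort), and the mean of per-cell CPM in limma gave 2048 higher (282 higher than every sort). With the cells of a further letter, pE, added to the NSC sort and no block, 634 were higher and 21 were higher than every sort. Leaving out 1 letter gave 331 to 438 higher and 736 to 882 lower, and 4 to 19 and 115 to 224 against every sort. The higher share of all calls was 41.4% in the main fit, 30.7% without the block, 31.0% without pB, 27.9% without pC and 50.9% with per-cell means, and the cause was not tested.

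Gene directions that turned belonged to genes not called, or to myelin genes. Gria2 stood at a log2 fold change of -0.20 to 0.28 with 1 letter left out, -0.30 without the labelled oligodendrocytes and -0.03 without the TAPs. Npc2 stood at -0.42 to 0.41 with 1 letter left out, -0.15 without the block, -0.0047 with RLE size factors and with DESeq2, -0.05 without the oligodendrocytes and -0.03 with pE. Pecam1 stood at -0.01 to 0.53 with 1 letter left out. Without the oligodendrocytes Mog stood at 3.15, Gpr17 at 2.82 and Mbp at 0.65. Shares of cells with a read after thinning stand beside the unthinned ones above. Of 118 named and called genes 68 kept the call in all 3 leave-outs and 50 did not. The third letter, with the fewest counts, limits what can be read of genes at low levels.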

Other observations

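The letter pE holds 35 further WT naive cells of the NSC and NSC-B gates and no NB cells, so it entered no comparison within letters. Scaled with the other sums, its Slc1a3 level was 5201 CPM and its Gpr37l1 level 855 CPM, both within the range of the NSC sums of pA, pB and pC. Its Dcx level was 46.2 CPM and its Cd24a level 24.6 CPM, above those 3 NSC sums and far below the NB sums. Mki67 stood at 296 CPM and Hes5 at 102 CPM in pE. Cdk4, Mcm7 and Mcm6 stood at 221, 166 and 154 CPM in pE, above the NSC sums of pA, pB and pC. Of these, Mcm6 was also above the NB sums, Mcm7 was within their range and Cdk4 was just below them.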
